A study of Homo sapiens with 6 samples.

Results

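The genes described here are the nuclear-encoded subunits of the mitochondrial respiratory chain and ATP synthase, grouped by complex. They were chosen by symbol, without readthrough, antisense or pseudogene entries. The symbols were NDUF followed by A, B, C, S or V and a number, SDHA to SDHD, and those that start with UQCR, ATP5 or COX4 to COX8. This rule also takes in ATP5S and ATP5SL, which are counted with complex V here but are no structural subunits of it. NDUFAB1 does not match this rule and is not described here. The rule gave 86 of the 27685 genes in the table, of which 38 belong by symbol to complex I, 4 to complex II, 9 to complex III, 17 to complex IV and 18 to complex V. A filter on low counts left 78 of these 86 genes for testing. The respiratory chain passes electrons from NADH (complex I) and succinate (complex II) through ubiquinone, complex III and cytochrome c to oxygen at complex IV, and complexes I, III and IV pump protons across the inner mitochondrial membrane. ATP synthase, or complex V, lets the protons back and makes ATP. Complexes I, III, IV and V combine proteins of nuclear and mitochondrial genes, while complex II is wholly nuclear. Intestinal absorptive cells use this chain to burn glutamine and fatty acids.

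The series measured polyA RNA of Caco-2, an established human colorectal cancer cell line with features of absorptive intestinal cells, by RNA sequencing. Cells labelled hFABP1as, with the genotype FABP1_knockdown, had 3 libraries and are called FABP1 antisense here. FABP1 is a fatty acid carrier, and the labels do not describe the construct. The control was mock-transfected cells labelled pcDNA3, with the genotype WT, also with 3 libraries. Cells of both labels are of the same line. Both groups were grown in the same medium. The labels do not say how many clones each group came from or whether each library had its own culture, so the p-values rest on a spread between libraries that may be only technical. Libraries are named by the numbers 2, 3 and 4 in the column headers.

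FABP1 itself overlapped between the groups. It had 134, 147 and 122 CPM (counts per 1e6 of the scaled library size) in the libraries labelled FABP1 antisense, against 138, 102 and 121 CPM in the vector control, a log2 fold change of 0.16 (SE 0.12, adjusted p = 0.268, from edgeR's quasi-likelihood fit and adjusted over all tested genes after Benjamini and Hochberg). Since the targeted gene did not pass, the group is called by its label throughout. Whether strand was used in counting is not given. If it was not, reads of an antisense transcript of FABP1 cannot be told apart from those of FABP1 itself. Total counts were 41768687 to 55153051 in the FABP1 antisense libraries and 40351394 to 57979037 in the vector control libraries. All 8 epithelial markers listed reached 1 CPM, with summed levels of 15658 to 18587 CPM in FABP1 antisense libraries and 14324 to 17680 CPM in vector control libraries. Of 4 leukocyte markers 1 reached 1 CPM (sums of 2.19 to 2.62 CPM in FABP1 antisense and 11.3 to 14 CPM in the vector control), with PTPRC at 0. Of 5 fibroblast markers 3 reached 1 CPM (sums of 26.4 to 30.8 CPM in FABP1 antisense and 13.4 to 16.8 CPM in the vector control), with DCN and COL1A2 at 0. Of 3 endothelial markers 1 did (sums of 2.39 to 2.67 CPM in FABP1 antisense and 0.833 to 1.42 CPM in the vector control), with CDH5 at 0. Their part in the results below was not tested.

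Respiratory chain genes were more often higher than lower in the FABP1 antisense libraries, by small amounts. Of the 78 tested genes, 41 were higher (52.6%, against 27.7% of all 14640 tested genes) and 4 were lower (5.13%, against 27.3% of all tested genes) at an adjusted p under 0.05, where 55.0% of all tested genes passed in either direction. Their median log2 fold change was 0.27, against 0.01 over all tested genes, and single values ran from -1.12 to 0.99. The groups did not overlap in 43 genes upward (31.7% of all tested genes did so) and in 6 downward (31.0% of all tested genes), out of 62.7% of all tested genes without overlap in either direction. Without vector control library 2, or without FABP1 antisense library 4, 2 genes were lower in place of 4. Of the 78, 76 had a mean log2 CPM of 5 or more, and among the 6372 tested genes at or above that level 27.1% were higher and 31.0% lower.

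The 86 genes together took 1.48, 1.46 and 1.42% of all counts in FABP1 antisense libraries, against 1.21, 1.11 and 1.20% in vector control libraries. The summed level of the 78 tested genes was 1.23 times that of the vector control over all complexes. It was 1.15 times for complex I, 1.13 times for complex II, 1.27 times for complex III, 1.45 times for complex IV and 1.21 times for complex V. Every FABP1 antisense library lay above every vector control library in each of these 5 sums. Each sum is weighted by its most abundant genes. In complex V, ATP5B alone had a mean of 1845 CPM in FABP1 antisense and 1159 CPM in the vector control, within sums of 5051 and 4191 CPM. In complex II only SDHD passed, with means of 207 and 151 CPM within sums of 840 and 741 CPM. A higher sum thus need not mean that most genes of a complex were higher. In bulk RNA, a change in every cell and a change in the share of cells with high levels cannot be told apart.

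**Figure D1:**
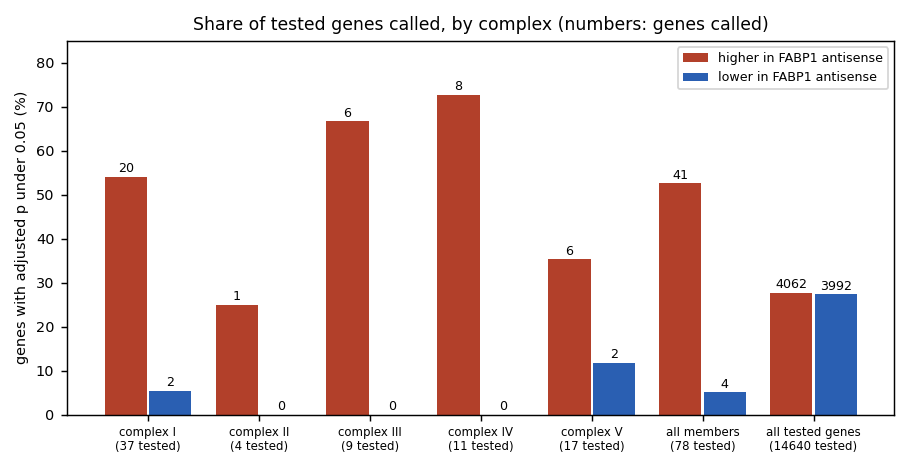
Share of tested genes with an adjusted p under 0.05 (y axis, %), higher in FABP1 antisense (red, left) or lower (blue, right), for each complex, all members and all tested genes (x axis); numbers over the bars count genes. Complex IV has 8 genes higher and 0 lower of 11, and complex V 6 higher and 2 lower of 17, beside 27.7% and 27.3% over all tested genes.

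Complex I, the NADH dehydrogenase, had 20 of 37 tested genes higher and 2 lower (54.1% and 5.41%), with a median log2 fold change of 0.31. These counts include NDUFA4 by its symbol. It sits in complex IV and is in neither the core nor the accessory count below. Of the 7 core subunits, which carry out electron transfer on the arm outside the membrane, 1 was higher and 2 were lower (14.3% and 28.6%, against 27.7% and 27.3% of all tested genes), with a median of -0.04. Of 29 accessory subunits 18 were higher and 0 were lower (62.1% and 0%), with a median of 0.34. The difference between core and accessory subunits was not tested, since genes are not replicates.

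The largest rises of complex I were of accessory subunits. NDUFA12, at the peripheral arm where NADH is oxidised, had 84.4, 81.9 and 81.4 CPM in FABP1 antisense libraries and 48.4, 43.4 and 45.6 CPM in vector control libraries. The groups lay far apart, with a log2 fold change of 0.85 (SE 0.07, adjusted p = 1.55e-05 by edgeR). NDUFA5, of the arm that binds ubiquinone, had 54.5, 55.9 and 66.7 CPM in FABP1 antisense against 39.4, 40 and 31.0 CPM in the vector control. Its FABP1 antisense library 4 was the highest and its vector control library 4 the lowest, and the log2 fold change was 0.68 (SE 0.12, adjusted p = 0.00135 by edgeR). NDUFA1, a small subunit of the membrane arm, had 73.0, 74.1 and 70.0 CPM in FABP1 antisense against 50.6, 40.7 and 48.9 CPM in the vector control (0.63, SE 0.09, adjusted p = 0.000467 by edgeR). The groups did not overlap for any of these 3 genes.

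The falls in complex I were among core subunits and depended on settings and single libraries. NDUFS8, which carries iron-sulfur clusters, had 168, 157 and 134 CPM in FABP1 antisense against 190, 164 and 216 CPM in the vector control. These groups overlapped, and the log2 fold change of -0.31 (SE 0.12, adjusted p = 0.0492 by edgeR) did not hold in 9 of 16 alternatives. It was lost with DESeq2 size factors, with upper quartile scaling, without the filter on low counts, and with a GC trend removed (-0.13). It was also lost without vector control libraries 2 and 4 and FABP1 antisense libraries 3 and 4, each left out alone. Without vector control library 2, or without FABP1 antisense library 4, 0 complex I genes were lower.

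Among the other core subunits, NDUFS7, which carries the cluster that reduces ubiquinone, had 93.9, 96.6 and 81.0 CPM in FABP1 antisense libraries and 67.7, 50.7 and 75.5 CPM in vector control libraries. It was the 1 core subunit that was higher (log2 fold change 0.49, SE 0.14, adjusted p = 0.0162 by edgeR), and its call was lost without FABP1 antisense library 3 (adjusted p = 0.0552). NDUFS1, the largest core subunit, had 205, 191 and 199 CPM in FABP1 antisense against 211, 231 and 219 CPM in the vector control, without overlap, and did not pass (-0.15, SE 0.07). NDUFV1, where NADH is oxidised, and its partner NDUFV2 did not pass either (-0.04 and 0.11 on the log2 scale), nor did NDUFS3 (0.21). By place in the complex, 5 of 10 genes of the NADH-binding module were higher and 0 lower. In the ubiquinone module 2 of 5 were higher and 2 lower, and in the membrane arm 11 of 20 were higher and 0 lower. The background was 27.7% higher and 27.3% lower over all tested genes. Differences between modules were not tested. The calls for NDUFA7, NDUFA8, NDUFB7 and NDUFC1 were each lost in at least 1 fit that left out a library.

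**Figure D2:**
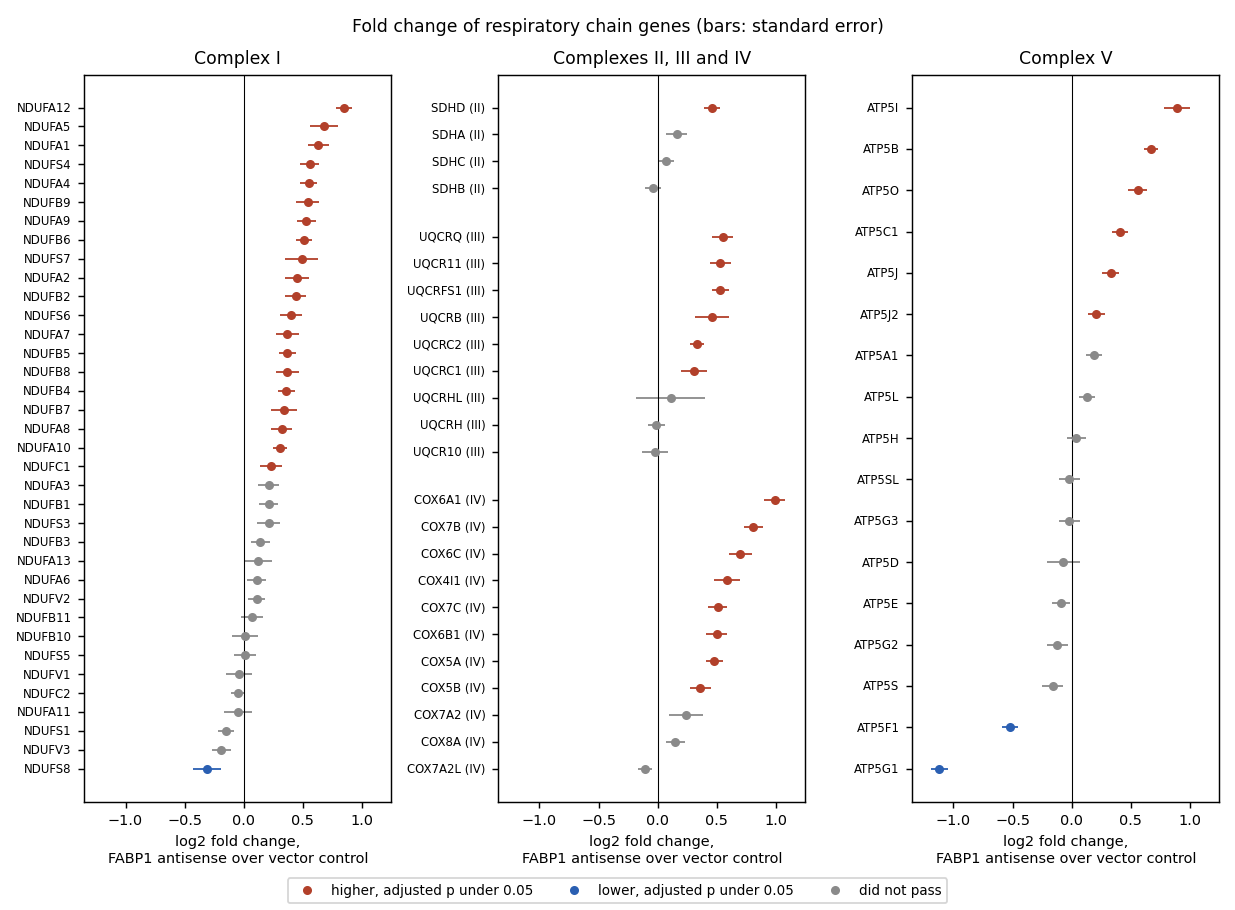
Log2 fold change, FABP1 antisense over vector control (x axis), with its standard error (bars) for 77 of the 78 tested genes (rows), sorted within complexes. Complex IV lies mostly to the right of 0, while complex V runs from ATP5G1 at -1.12 to ATP5I at 0.89.

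Complex II, succinate dehydrogenase, which is also an enzyme of the citric acid cycle, had 1 of 4 genes higher and 0 lower. These shares were 25.0% and 0%, against 27.7% and 27.3% of all tested genes, so the share higher was near the background. SDHD, a membrane anchor, had 208, 197 and 216 CPM in FABP1 antisense libraries and 157, 155 and 141 CPM in vector control libraries. All 3 FABP1 antisense libraries lay above the vector control (log2 fold change 0.46, SE 0.07, adjusted p = 0.00077 by edgeR). The flavoprotein SDHA, the iron-sulfur protein SDHB and the other anchor SDHC overlapped between the groups and did not pass (0.16, -0.04 and 0.07 on the log2 scale). The 95% intervals of these 3 log2 fold changes reached at most 0.36 upward and -0.19 downward.

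Complex III, the cytochrome bc1 complex, had 6 of 9 genes higher and 0 lower, with a median log2 fold change of 0.33. These shares were 66.7% and 0%, against 27.7% and 27.3% of all tested genes. UQCRQ, a small membrane subunit, had 182, 178 and 164 CPM in FABP1 antisense libraries and 129, 105 and 123 CPM in vector control libraries (log2 fold change 0.55, SE 0.09, adjusted p = 0.000925 by edgeR). UQCRFS1, the Rieske iron-sulfur protein that passes electrons on to cytochrome c1, had 267, 249 and 243 CPM in FABP1 antisense against 179, 167 and 179 CPM in the vector control (0.53, SE 0.07, adjusted p = 0.000232 by edgeR). Neither gene overlapped between the groups. UQCR11, another small subunit, had 156, 153 and 142 CPM in FABP1 antisense against 112, 92.8 and 107 CPM in the vector control (0.53, SE 0.09, adjusted p = 0.000849 by edgeR). The core proteins UQCRC2 and UQCRC1, which form the matrix side, were higher by 0.33 and 0.31 on the log2 scale. The UQCRC1 groups overlapped, and its call was lost without vector control library 2 or 3 and without FABP1 antisense library 2 or 3. UQCRB, which lies beside cytochrome b, was higher by 0.46 (SE 0.14), a call lost without vector control library 4 and without FABP1 antisense library 3 or 4. UQCR10 and the hinge protein UQCRH did not pass (-0.02 and -0.01 on the log2 scale). UQCRHL, a near copy of UQCRH, stood at 0.704 to 1.12 CPM in FABP1 antisense libraries and 0.699 to 1.03 CPM in vector control libraries, and reads could be split between both genes.

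Complex IV, cytochrome c oxidase, had the highest share of genes called among the 5 complexes, with 8 of 11 higher and 0 lower and a median log2 fold change of 0.50. These shares were 72.7% and 0%, against 27.7% and 27.3% of all tested genes. COX6A1, a regulatory subunit, had 448, 451 and 383 CPM in FABP1 antisense libraries and 234, 195 and 216 CPM in vector control libraries. Every FABP1 antisense library was well above the vector control, at 1.99-fold (log2 fold change 0.99, SE 0.09, adjusted p = 3.42e-05 by edgeR). COX7B, a small membrane subunit, had 229, 254 and 226 CPM in FABP1 antisense against 142, 127 and 136 CPM in the vector control (0.81, SE 0.08, adjusted p = 3.58e-05 by edgeR). COX6C had 91.1, 96.0 and 94.3 CPM in FABP1 antisense against 66.0, 49.2 and 57.8 CPM in the vector control (0.70, SE 0.10, adjusted p = 0.000523 by edgeR). The groups were apart for both genes.

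COX4I1, one of the first nuclear subunits to join the complex, was higher by 0.59 on the log2 scale, and COX7C, COX6B1, COX5A and COX5B by 0.51, 0.50, 0.48 and 0.36, with no overlap in any of these 5 genes. COX8A had 135, 132 and 129 CPM in FABP1 antisense libraries and 118, 108 and 132 CPM in vector control libraries and did not pass (0.15, SE 0.08). COX7A2 had 103, 134 and 139 CPM in FABP1 antisense against 116, 116 and 87.7 CPM in the vector control and did not pass either (0.24, SE 0.14). COX7A2L, which helps join complexes III and IV into supercomplexes, had 89.2, 88.7 and 91.9 CPM in FABP1 antisense against 99.2, 97.5 and 94.5 CPM in the vector control. Its groups did not overlap, downward, yet it did not pass (-0.11, SE 0.06, adjusted p = 0.165 by edgeR).

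The isoforms of complex IV known from muscle, lung or testis were not detected or nearly so. COX4I2, COX6A2, COX7A1, COX7B2 and COX8C had 0 counts in all 6 libraries. A count of 0 allows up to 0.0729, 0.0671 and 0.0533 CPM in FABP1 antisense libraries 2, 3 and 4 and 0.0521, 0.0735 and 0.0699 CPM in vector control libraries 2, 3 and 4 (3 counts per library, counting error only). COX6B2 had 3 counts in FABP1 antisense library 4 and 0 elsewhere. So COX4I1, COX6A1, COX7B and COX8A gave all the reads of their isoform pairs here, and COX6B1 all but those 3 counts. NDUFA4 has a complex I name, and is counted with complex I here, but sits in complex IV. It had 225, 215 and 224 CPM in FABP1 antisense libraries and 163, 148 and 143 CPM in vector control libraries (log2 fold change 0.55, SE 0.07, adjusted p = 0.000255 by edgeR). Its relative NDUFA4L2, induced by low oxygen in other cells, had 4, 10 and 14 counts in FABP1 antisense libraries, against 3, 8 and 0 in vector control libraries, and was too low to test.

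**Figure D3:**
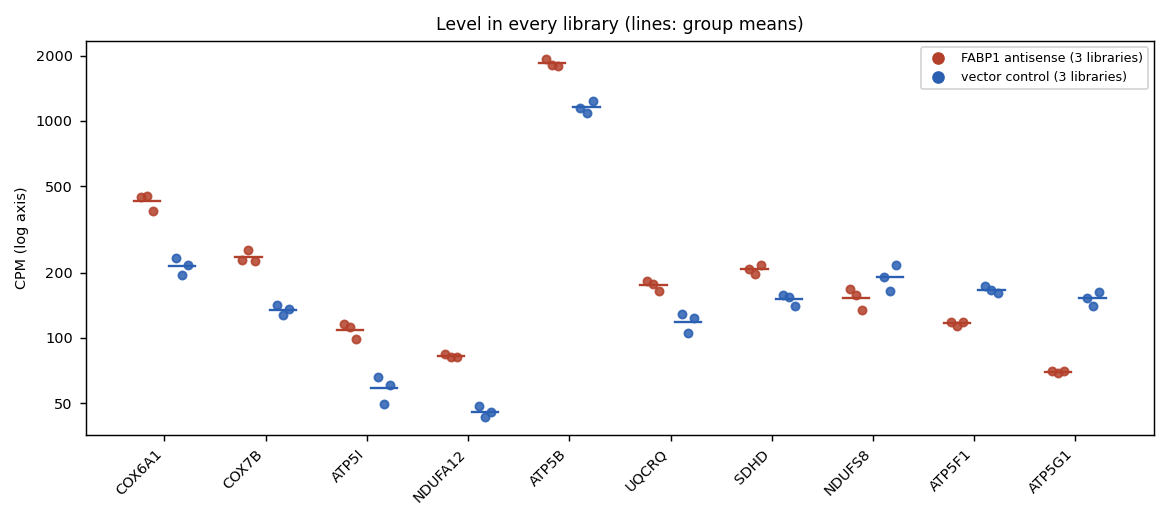
Level of 10 genes (x axis) in every library, in CPM on a log axis (y axis), FABP1 antisense in red at the left and vector control in blue at the right of each gene, with lines at the group means. COX6A1, COX7B and ATP5I lie higher in all 3 FABP1 antisense libraries, ATP5F1 and ATP5G1 lower in all 3, and NDUFS8 overlaps.

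Complex V had 6 of 17 genes higher and 2 lower, with a median log2 fold change of 0.04. These shares were 35.3% and 11.8%, against 27.7% and 27.3% of all tested genes, so the share higher was near the background. The counts include ATP5S and ATP5SL by their symbols. In the catalytic head, ATP5B, the beta subunit that makes ATP, had 1935, 1817 and 1785 CPM in FABP1 antisense libraries and 1150, 1091 and 1235 CPM in vector control libraries (log2 fold change 0.67, SE 0.06, adjusted p = 3.93e-05 by edgeR). Its partner ATP5A1, the alpha subunit, had 679, 639 and 622 CPM in FABP1 antisense against 595, 516 and 589 CPM in the vector control. The ATP5A1 groups did not overlap, but it missed the threshold (0.19, SE 0.07, adjusted p = 0.0533 by edgeR). It passed in 5 of 16 alternatives (adjusted p 0.00991 to 0.049), among them both with DESeq2. ATP5C1, the rotating gamma shaft, was higher by 0.41, while ATP5D and ATP5E, the delta and epsilon subunits, overlapped and did not pass (-0.07 and -0.09 on the log2 scale).

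In the stalk and membrane part, ATP5I, subunit e, which helps pair the enzyme into dimers, had 116, 112 and 99.1 CPM in FABP1 antisense libraries and 66.1, 49.7 and 60.5 CPM in vector control libraries. The groups were well apart, at 1.85-fold (log2 fold change 0.89, SE 0.11, adjusted p = 0.000205 by edgeR). ATP5O, which links head and stalk, and ATP5J, a stalk subunit, were higher by 0.56 and 0.33 on the log2 scale, and ATP5J2 by 0.21. The ATP5J2 call was lost without vector control library 3 or 4 and without FABP1 antisense library 2 or 3, and reads could be shared with a readthrough gene that holds its exons. ATP5F1, the stalk subunit b, had 118, 113 and 119 CPM in FABP1 antisense against 174, 166 and 161 CPM in the vector control. It was lower in all 3 FABP1 antisense libraries (-0.52, SE 0.07, adjusted p = 0.000201 by edgeR). ATP5H and ATP5L did not pass. Nor did ATP5S and ATP5SL, which share the symbol stem but are no structural subunits of the enzyme. ATP5L2 had 1, 0 and 1 counts in FABP1 antisense libraries and 3, 3 and 1 in vector control libraries.

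Subunit c forms the rotating ring of ATP synthase and is made from 3 genes, ATP5G1, ATP5G2 and ATP5G3, whose mature proteins are the same and whose import signals differ. ATP5G1 had 70.7, 68.8 and 70.5 CPM in FABP1 antisense libraries and 153, 141 and 163 CPM in vector control libraries. That was the largest change in either direction among the 78 genes, at 0.460 of the vector control level (log2 fold change -1.12, SE 0.07, adjusted p = 3.88e-06 by edgeR). ATP5G2 had 103, 93.9 and 89.7 CPM in FABP1 antisense against 107, 92.8 and 111 CPM in the vector control (-0.12, SE 0.09), and ATP5G3 had 311, 353 and 355 CPM in FABP1 antisense against 303, 347 and 380 CPM in the vector control (-0.02, SE 0.09). Both overlapped and did not pass, with 95% intervals of -0.32 to 0.09 for ATP5G2 and -0.23 to 0.20 for ATP5G3. ATP5G1 gave 14.6, 13.3 and 13.7% of the reads of the 3 genes in FABP1 antisense libraries, against 27.2, 24.3 and 24.9% in vector control libraries. These are shares of reads, not of transcripts, since longer transcripts give more reads. The summed level of the 3 genes was 485, 516 and 515 CPM in FABP1 antisense, against 563, 581 and 654 CPM in the vector control, without overlap. Subunit c genes thus had a lower summed level in the same libraries in which ATP5B was higher.

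**Figure D4:**
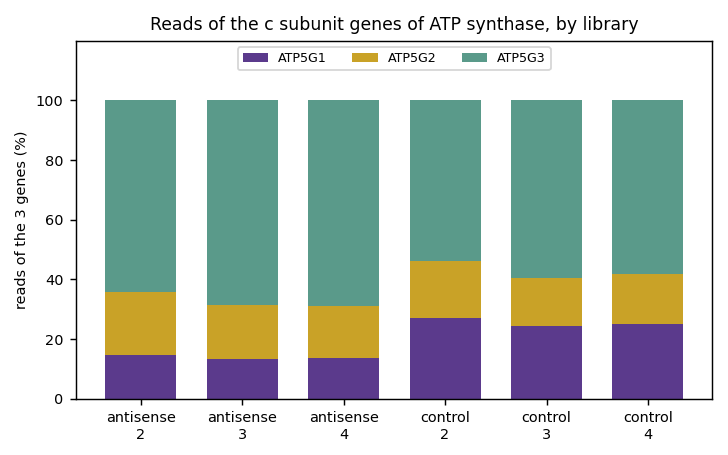
Share of the reads of ATP5G1, ATP5G2 and ATP5G3 (y axis, % of the reads of the 3 genes) in each library (x axis), FABP1 antisense at the left and vector control at the right. ATP5G1 gives 13.3 to 14.6% of the reads in FABP1 antisense libraries and 24.3 to 27.2% in vector control libraries.

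Each gene's fold change was also set beside that of its neighbours in gene order, as the median log2 fold change of up to 50 tested genes on either side. The same was done for all tested genes, of which 14602 could be placed. Of 19 respiratory chain genes whose neighbours had a median of 0.2 or more, 17 were higher and 0 lower (89.5% and 0%), where 49.4% of all tested genes with such neighbours were higher and 11.3% lower. Of 24 with a neighbour median from 0 to 0.2, 16 were higher and 0 lower (66.7% and 0%, against 31.8% and 17.4% of all such genes). Of 25 with a neighbour median from -0.2 to 0, 7 were higher and 2 lower (28.0% and 8%, against 17.7% and 31.2% of all such genes). Of 10 with a neighbour median under -0.2, 1 was higher and 2 were lower (10.0% and 20%, against 9.89% and 55.1% of all such genes). Over all tested genes, too, the share higher was largest where neighbours were highest, and the part of position in the calls was not tested. The median of the neighbour medians was 0.06, against the genes' own median of 0.27, and 64 of the 78 genes lay above their own neighbours. Over all genes, 7329 of the 14602 placed lay above theirs. So did 60 of 77 mitochondrial and 50 of 82 cytosolic ribosomal protein genes, and 38 of 50 assembly factors.

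Single genes differed in how far their neighbours moved with them. ATP5G1 fell by 1.12 where its neighbours had a median of -0.03, and ATP5I was higher by 0.89 where its neighbours had -0.05. COX6B1 and UQCR11, at 0.50 and 0.53, had neighbour medians of -0.10 and -0.01. ATP5F1 at -0.52, by contrast, lay among neighbours with a median of -0.51. NDUFA12 at 0.85 lay among neighbours with 0.64, and COX6A1 at 0.99 among neighbours with 0.41. ATP5G2 at -0.12 lay among neighbours that were higher, with a median of 0.43.

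**Figure D5:**
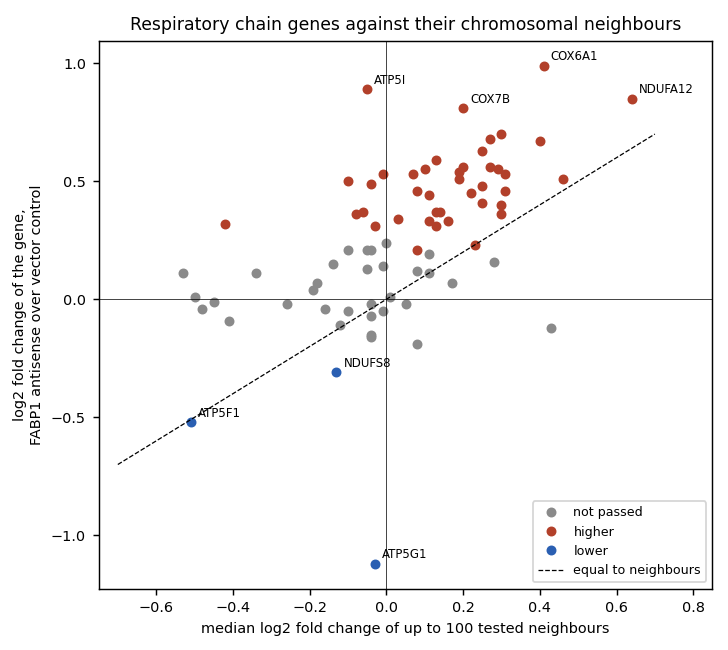
Log2 fold change of 77 tested genes (y axis) against the median log2 fold change of up to 50 tested genes on either side of it in chromosomal order (x axis), with the dashed line where both are equal. Most points lie above the line, since 64 of the 78 tested genes lay above their neighbours, while ATP5F1 lies near it, and ATP5G1 lies far below it. Over all genes, 7329 of the 14602 placed lay above their neighbours.

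Base composition, and transcript length to a lesser extent, went with the median fold change over all genes. Across bins of transcript length, the median log2 fold change of tested genes was 0.10 under 600 bases, -0.02 from 2000 to 3000 bases and 0.03 over 5000 bases. The share called did not follow these medians, with 21.3% higher and 11.1% lower under 600 bases and 30.2% higher and 29.3% lower over 5000 bases. Of the 14 respiratory chain genes under 600 bases, 9 were higher and 0 lower. Tested genes under 40% GC had a median of 0.19, and those of 60% or more -0.14. Of 77 respiratory chain genes with a known length, 56 had transcripts under 1500 bases. With a trend over length removed from each library, 39 genes were higher and 4 lower, and with a trend over GC removed, a fit chosen after seeing the data, 48 were higher and 6 lower.

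The promoters of these genes are known for sites of the factors NRF1, GABP (of the ETS family) and YY1. RefSeq promoter windows of build GRCh38.p14, from 250 bases before to 50 after the start, were matched by gene ID for 64 of the 78 tested genes and searched on both strands. Matches that overlap were each kept, as the NRF1 letters overlap their own reverse. The NRF1 core GCATGCGC was in 13 of the 64 windows (20.3%), against 5.46% of the windows of tested genes and 3.27% of all windows of that length. The ETS letters CCGGAAGT were in 9 (14.1%, against 8.45% and 4.44%), and the YY1 letters AANATGGC in 22 (34.4%, against 9.74% and 6.82%). Of 35 genes that were higher, 10 held the NRF1 letters, and of 26 that did not pass, 3 did. None of the 3 genes with a window that were lower held them. The 13 genes with the NRF1 letters had a median log2 fold change of 0.36, and the 51 without them 0.23, but among the genes that were higher the medians were 0.40 with and 0.51 without. For YY1 the medians were 0.32 with and 0.31 without, and for ETS 0.15 and 0.32. A match is a run of letters and not a bound site.

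The 250 bases before the start are shown for the gene with the largest rise, for the complex V gene with the largest rise and for the gene with the largest fall, in lower case with matches to any of these motifs in capitals. They lie at chr12:120437863-120438112 (COX6A1, plus strand), chr4:674277-674526 (ATP5I, minus strand) and chr17:48892537-48892786 (ATP5G1, plus strand) in GRCh38.p14, and are written 5′ to 3′ on the gene's strand.
COX6A1: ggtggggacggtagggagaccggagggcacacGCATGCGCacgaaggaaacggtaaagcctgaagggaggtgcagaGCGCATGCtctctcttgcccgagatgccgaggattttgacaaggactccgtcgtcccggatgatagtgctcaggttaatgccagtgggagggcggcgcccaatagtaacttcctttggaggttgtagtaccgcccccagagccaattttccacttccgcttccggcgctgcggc
ATP5I: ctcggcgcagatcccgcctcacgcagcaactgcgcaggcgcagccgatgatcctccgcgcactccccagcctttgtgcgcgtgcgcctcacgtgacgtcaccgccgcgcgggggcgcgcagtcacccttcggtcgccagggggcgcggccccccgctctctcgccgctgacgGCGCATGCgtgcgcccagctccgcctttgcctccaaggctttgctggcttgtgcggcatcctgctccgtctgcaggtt
ATP5G1: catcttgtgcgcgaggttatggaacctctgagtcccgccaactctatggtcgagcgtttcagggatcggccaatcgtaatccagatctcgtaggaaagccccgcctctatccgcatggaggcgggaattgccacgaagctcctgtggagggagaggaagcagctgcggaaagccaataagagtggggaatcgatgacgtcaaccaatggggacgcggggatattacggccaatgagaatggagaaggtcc
The COX6A1 stretch holds the NRF1 letters at 2 places and the ATP5I stretch at 1, while none of these motifs was found in the 250 bases shown for ATP5G1.

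Of 11 tested regulators of these genes, 3 were higher and 2 lower (27.3% and 18.2%, against 27.7% and 27.3% of all tested genes), which is near the background. NRF1, the factor itself, had 29.4, 27.6 and 26.0 CPM in FABP1 antisense libraries and 31.0, 31.2 and 32.8 CPM in vector control libraries, without overlap and without passing the test (log2 fold change -0.20, SE 0.08, adjusted p = 0.0591 by edgeR). YY1 and GABPA did not pass (0.04 and 0.31 on the log2 scale), and GABPB1, the partner of GABPA, was higher by 0.37 (adjusted p = 0.0396 by edgeR). PPARGC1B, a coactivator of mitochondrial genes, had 43.1, 45.8 and 44.7 CPM in FABP1 antisense against 19.6, 26.2 and 19.9 CPM in the vector control, the largest rise among 11 tested regulators (1.03, SE 0.12, adjusted p = 0.000112 by edgeR). Its relative PPARGC1A had 3, 3 and 6 counts in FABP1 antisense libraries, against 0 in all vector control libraries and was not tested. TFAM, which packs mitochondrial DNA and helps start its transcription, had 299, 300 and 365 CPM in FABP1 antisense against 215, 230 and 202 CPM in the vector control (0.57, SE 0.09, adjusted p = 0.000925 by edgeR). TFB1M, a methyltransferase of mitochondrial ribosomal RNA, and the nuclear receptor ESRRG were lower (-0.45 and -0.38 on the log2 scale).

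Assembly factors, which help build the complexes but are not part of them, had 21 of 50 genes higher and 7 lower (42.0% and 14%, against 27.7% and 27.3% of all tested genes), with a median log2 fold change of 0.16. For complex I, 8 of 13 were higher and 1 lower (61.5% and 7.69%). NDUFAF2, a relative of NDUFA12 that holds its place during assembly, had 87.7, 85.9 and 94.4 CPM in FABP1 antisense libraries and 57.1, 47.0 and 44.4 CPM in vector control libraries (0.85, SE 0.10, adjusted p = 0.000145 by edgeR). NDUFAF1 and NDUFAF5 were higher by 0.45 and 0.44, and FOXRED1 was lower (-0.26). For complex IV, 10 of 24 were higher and 1 lower (41.7% and 4.17%). Among them were PET100 (0.53), COX18 (0.48), COX14 (0.45) and the copper chaperone COX17 (0.42), with COA7 lower (-0.33). For complex II, SDHAF3, which helps mature the iron-sulfur subunit, was higher by 0.86 and the other 3 did not pass.

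The lists for complexes III and V hold few genes. Their counts stand beside 27.7% higher and 27.3% lower over all tested genes. Of 6 for complex III, BCS1L (-0.36), which inserts the Rieske protein, UQCC1 (-0.32) and UQCC2 (-0.24) were lower, and LYRM7, which keeps the Rieske protein stable before insertion, was higher by 0.72. UQCC1 and UQCC2 lay among neighbours with medians of -0.50 and -0.27. Of 3 for complex V, ATPAF1 (-0.24) and ATPAF2 (-0.23) were lower and TMEM70, a factor for the c ring, was higher by 0.28.

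Of 5 tested subunits and carriers that the symbol rule leaves out, 3 were higher and 0 lower. The background was 27.7% higher and 27.3% lower over all tested genes. CYCS, cytochrome c itself, had 384, 349 and 405 CPM in FABP1 antisense libraries and 233, 250 and 217 CPM in vector control libraries (log2 fold change 0.70, SE 0.08, adjusted p = 0.000129 by edgeR). CYC1, the cytochrome c1 subunit of complex III, was higher by 0.36, and USMG5, a small ATP synthase subunit, by 0.54. The ATP synthase inhibitor ATPIF1 did not pass (-0.08). Of 11 genes of ubiquinone synthesis 6 were higher and 1 lower (54.5% and 9.09%, against 27.7% and 27.3% of all tested genes), with PDSS1, which makes the tail of ubiquinone, at 0.99, COQ7 at 0.86, COQ10A at 0.65, COQ9 at 0.51 and COQ4 at -0.32. Of 7 carriers and porins 5 were higher and 0 lower (71.4% and 0%), where the neighbours of all 7 had medians above 0. Those higher included the ADP/ATP carrier SLC25A5 (0.54), the phosphate carrier SLC25A3 (0.39), VDAC1 (0.48) and VDAC2 (0.33).

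Of 9 genes of other electron entry points and uncoupling, 3 were higher and 1 lower (33.3% and 11.1%, against 27.7% and 27.3% of all tested genes), with a median log2 fold change of -0.04. ETFA and ETFDH, which pass electrons from fatty acid oxidation to ubiquinone, were higher by 0.43 and 0.44, and the choline dehydrogenase CHDH by 0.24. ETFB, of the same route, overlapped between the groups and did not pass (-0.04, SE 0.13). UCP2, an inner membrane carrier of the uncoupling protein family, had 96.4, 93.8 and 82.7 CPM in FABP1 antisense libraries and 140, 128 and 159 CPM in vector control libraries (log2 fold change -0.64, SE 0.10, adjusted p = 0.000604 by edgeR). All 3 FABP1 antisense libraries were below the vector control.

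Other gene families of small proteins gave these counts for comparison. Of 77 mitochondrial ribosomal protein genes 33 were higher and 7 lower (42.9% and 9.09%, median log2 fold change 0.18). Of 82 tested cytosolic ribosomal protein genes 32 were higher and 10 lower (39.0% and 12.2%, median 0.11). Over all tested genes 27.7% were higher and 27.3% lower, so both families, too, were more often higher than lower. The difference between these families and the respiratory chain genes was not tested.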

How the data were processed

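PolyA RNA of Caco-2 cells was sequenced in 2 groups of 3 libraries. RNA was isolated with TRIzol and made into TruSeq stranded libraries, per the labels' protocols. Per the submitters' processing notes, the build was GRCh37 and the tools included StringTie 1.3.4d, HISAT2 2.1.0, Bowtie2 2.3.4.1 and Trimmomatic 0.38, with no role or order given. Whether strand was used in counting is not given in sources used here. The deposited table held raw read counts per gene, per the file headers. Its other 12 per-library columns were not used here, because columns could be matched to groups only, by the group name in the header.

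Counts were filtered with filterByExpr (14640 genes kept), scaled by TMM and compared with edgeR 4.0.16's quasi-likelihood test in R 4.3.3, with Benjamini-Hochberg adjustment over all tested genes and a threshold of 0.05. The standard error is the absolute log2 fold change over the square root of F. Libraries within a group were no copies of each other (chi-square over its degrees of freedom, 14.3 to 41.2 per pair). The test, tried on simulated data for the comparison of the FABP1 antisense with the vector control libraries with 200 of 14472 genes changed, all of a mean log2 CPM of at least 3, recovered 7.46% at a fold of 1.25, 71.6% at 1.5 and 100% at 2, and made 19 false calls. In the data 55.0% of tested genes passed, a far larger share than was changed in the simulation. The adjustment was therefore stricter there, and these recoveries do not give the share of small changes found here.

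Genes, lists and tests were chosen with earlier results of these data known, so no list was tested as a set. Per-library values were given for the 3 largest changes in each complex (adjusted p under 0.05, mean log2 CPM of at least 3), the falls, of which 1 gene is not reported here, and the isoform pairs, and up to 4 genes per other list. Other genes were named after their values were seen. Gene order came from RefSeq (GRCh38.p14), used without coordinates, which placed all 78 genes. Lengths and GC are medians over the GENCODE transcripts that share a RefSeq accession with the gene. Levels are not compared between genes. The listed symbols ADCK3, ADCK4, SQRDL, MP68, ATP5MPL and ATP5MD were not matched. Alternatives were other scalings, filters, DESeq2 1.42.0, limma-voom 3.58.1, trends over length and GC, a block on header numbers and fits with 1 library left out. Other steps used Python 3.11.15.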

Additional observations from a re-analysis of the deposited data

How the results depend on the processing

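Of the 41 rises, 33 kept their call in all 16 alternatives, and of the 4 falls the 2 of complex V did. No gene with a call in the main or the alternative fit turned its direction. The count of genes higher was 35 to 40 in fits that left out 1 library and 37 to 48 in the others, and the median log2 fold change was 0.22 to 0.32. The count of genes lower was 2 to 5 when 1 library was left out. With a replicate block on the header numbers it was 2, with 37 higher, 3355 higher and 3306 lower over all genes. The header numbers are not the labels' replicate numbers, and libraries with the same number did not deviate together (correlations of deviations 0.0619, -0.275 and -0.483), so the block is no paired analysis and a call lost under it is not read as a weaker effect. Removing the GC trend brought 10 respiratory chain genes past the threshold, NDUFS1 (-0.22), NDUFV3 (-0.16) and COX7A2L (-0.18) downward and 7 upward, and lost NDUFS8 (-0.13). Over all genes, too, calls rose in that fit, from 4062 to 4623 higher and from 3992 to 4417 lower. The cause of these shifts was not tested. Levels near the limit of 3 counts per library (0.0521 to 0.0735 CPM) cannot be told from 0.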

Other observations

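Rows whose symbols matched the pattern but were left out by the rule were the antisense genes NDUFA6-AS1, NDUFB2-AS1 and NDUFV2-AS1, the readthrough genes ATP5J2-PTCD1 and NDUFC2-KCTD14, and UQCRBP1. NDUFA6-AS1 had 17, 5 and 22 counts in FABP1 antisense libraries and 74, 39 and 35 counts in vector control libraries (log2 fold change -1.73, SE 0.44, adjusted p = 0.00965 by edgeR), and NDUFB2-AS1 had 8, 15 and 30 counts in FABP1 antisense libraries against 39, 30 and 36 counts in vector control libraries (-1.04, SE 0.38, adjusted p = 0.0449 by edgeR). If strand was not used in counting, their reads cannot be told apart from those of NDUFA6 and NDUFB2, which adjoin them in gene order. NDUFC2-KCTD14 had 202, 263 and 223 counts in FABP1 antisense libraries and 152, 10 and 286 counts in vector control libraries, with vector control library 3 far below the other two.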
